A study of Homo sapiens with 6 samples.

Results

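The genes described here are 10 members of the Eph receptor and ephrin families, with transcript levels from a stranded mRNA-seq kit in MDA-MB-231 M3, cells that metastasise to bone and go back to MDA-MB-231, an established line of triple-negative human breast cancer. They are the receptor genes EPHA1, EPHA2, EPHA4, EPHB2, EPHB3 and EPHB4 and the ligand genes EFNA1, EFNA5, EFNB1 and EFNB2, matched by symbol, and they make up 10 of the 20532 genes in the deposited table and 10 of its 23 genes of the 2 families. There were 3 control libraries and 3 libraries from cells in which PRMT1, the enzyme that places most asymmetric dimethylarginine on proteins, was knocked down with a small interfering RNA (siPRMT1). The controls carry only the words untreated and control, so the labels do not tell whether they were transfected with anything, and an effect of transfection and one of PRMT1 loss cannot be told apart. The labels call the samples biological replicates of 1 cell line without saying whether they were transfected separately, so errors and p-values below cover the spread among these libraries alone, and that spread may be technical. The members were chosen by symbol with the results of this same comparison known, so they count as selected on their log2 fold changes in it. Their differences between the groups are therefore given as a description, with fold changes and errors but no p-value.

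Eph receptors are the largest family of receptor tyrosine kinases, and their ligands, the ephrins, are held on the surface of neighbouring cells. Ephrin-A ligands are anchored by a lipid and mainly bind EphA receptors, while ephrin-B ligands span the membrane and mainly bind EphB receptors. Contact sends a forward signal through the receptor and a reverse signal through the ephrin, which together guide repulsion, adhesion and boundary formation between cells. In breast and other epithelial tumours EPHA2 is known both as a ligand-activated suppressor of migration and as a ligand-independent promoter of it. The pair of EFNB2 and EPHB4 is known for separating arteries from veins and for signalling between osteoclasts and osteoblasts in bone.

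The libraries held between 16968563 and 20545995 counts, and mitochondrially encoded genes took between 5.001% and 5.09% of them in the controls and between 8.64% and 8.74% after knockdown. PRMT1 had 3160, 2991 and 3072 counts in the controls and 193, 218 and 181 after knockdown, 12.3-fold less per scaled library. Genes known to be expressed in MDA-MB-231 (VIM, CAV1, AXL, MSN and CD44) were present in every library. Their summed level was 4316 to 4399 CPM (counts per TMM-scaled library size, as edgeR computes them). Within that sum the means of CAV1 (307.5 to 139.9 CPM), CD44 (1156 to 703) and MSN (641 to 543) fell after knockdown. Those of VIM (1817 to 2368) and AXL (460 to 590) rose. ESR1 and PGR had at most 3 counts in any library. Of the other genes listed as low or absent in triple-negative lines, CDH1 had 9 to 28 counts, and ERBB2 was present at 61.3 ± 1.97 CPM in the controls and 72.9 ± 2.57 CPM after knockdown. Of the markers of other cells, ADIPOQ and LEP had no count. The 4 leukocyte markers summed to between 4.997 and 5.48 CPM in the controls and between 8.31 and 9.33 CPM after knockdown, most of it CD14, and the 5 bone cell markers to between 3.70 and 4.61 CPM against between 7.23 and 7.45 CPM. That difference lay in BGLAP (1.11 ± 0.156 and 3.96 ± 0.261 CPM), while CTSK was at 2.83 ± 0.657 and 2.82 ± 0.245 CPM and SP7 and IBSP had at most 1 count in a library. Endothelial markers summed to between 25.2 and 26.4 CPM in the controls and between 20.3 and 21.05 CPM after knockdown, most of it PECAM1, while CDH5 had at most 1 count in a library and KDR went from 4.41 ± 0.693 to 0.544 ± 0.121 CPM. The part of such cells in the results was not tested, and in bulk libraries fewer cells of a kind and less RNA per cell cannot be told apart.

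All 10 members passed edgeR's filter on low counts. With the quasi-likelihood fit over all 13710 tested genes, 7 members were past an adjusted p of 0.05 on the higher side in the siPRMT1 libraries, where 44.3% of all tested genes lay, and 3 on the lower side, where 45% lay. Since 89.3% of all tested genes passed in one direction or the other, nothing is read from these counts. Of the genes past the threshold 49.6% were higher, against 37.7% with scaling by library size alone, under which 4 of the 10 members were higher. At least 2-fold changes were found for 1 member on the higher side (EPHA1; background 15.3% of genes) and for 2 on the lower side (EPHA4 and EFNB2; background 21% of genes). The median log2 fold change of the members, siPRMT1 minus control, was 0.50, against -0.0082 for all tested genes. For 9 members the 2 groups did not overlap, as for 89.1% of tested genes, and EPHB3 was the exception.

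**Figure D1:**
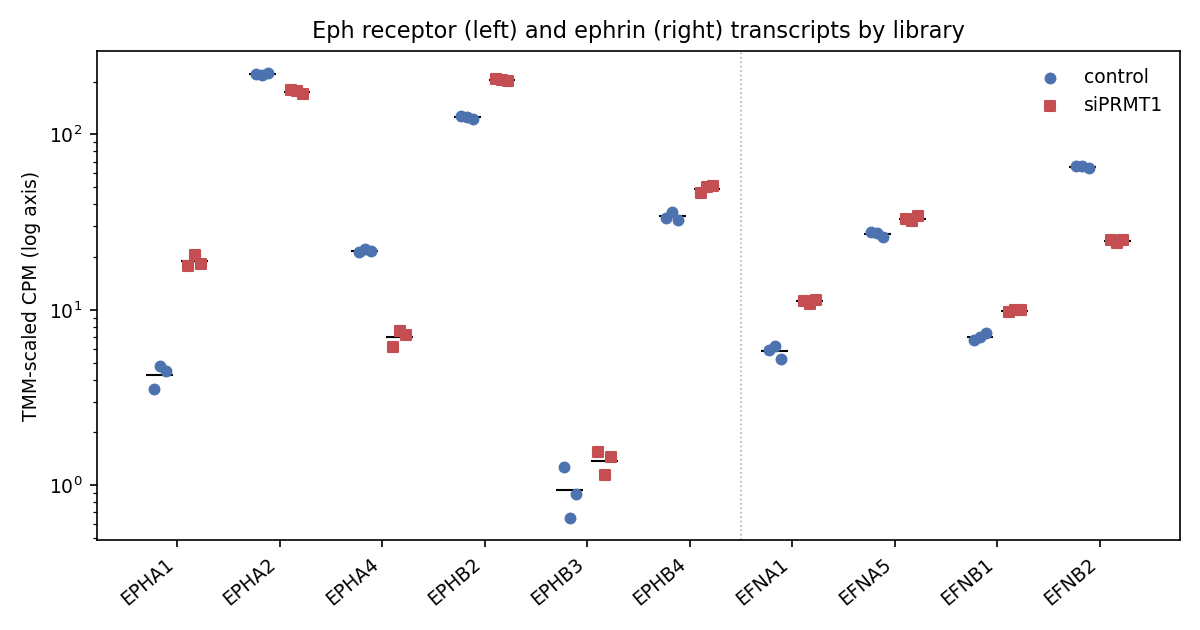
TMM-scaled CPM (log axis) of the 6 receptor and 4 ephrin genes in each of the 3 control (circles) and 3 siPRMT1 (squares) libraries, with a bar at each group's mean. EPHA1 stands higher in every siPRMT1 library and EPHA4 and EFNB2 lower, and EPHB3, the lowest member, overlaps between the groups.

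EPHA1, the first Eph receptor to be described, was the member with the largest increase. Its counts were 77, 96 and 95 in the controls against 288, 377 and 278 after knockdown, or 3.51, 4.80 and 4.47 CPM against 17.9, 20.5 and 18.3 CPM. The lowest siPRMT1 library was thus well above the highest control library. The mean went from 4.26 ± 0.667 to 18.9 ± 1.42 CPM (SD, n = 3 each), a log2 fold change of 2.16 (SE 0.091). That places EPHA1 at the 99.9th percentile of all tested genes. The gene lies on the minus strand of chromosome 7 (ENSG00000146904; hg38, 143390289 to 143408856). Its end overlaps ZYX on the opposite strand, which encodes the focal adhesion protein zyxin and was itself higher, from 80.6 ± 4.14 to 253 ± 3.37 CPM (log2 fold change 1.65). Of the 4697 exon bases of EPHA1, 82 are also exon of ZYX, and the sources used here do not give the strand setting of the counting, so the part of ZYX reads in the EPHA1 value was not tested.

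EPHA2 was the most abundant receptor transcript in both groups and was lower after knockdown. Its levels were 221, 217 and 224 CPM in the controls against 178, 177 and 169 CPM after knockdown. Every siPRMT1 library lay below every control library, and the gap was several times the spread within either group. The mean fell from 220.7 ± 3.22 to 174.6 ± 5.11 CPM (SD, n = 3 each; log2 fold change -0.34, SE 0.023), from 13945 to 8693 counts over the 3 libraries of a group. EPHA2 (ENSG00000142627) lies on chromosome 1, 16124337 to 16156052, minus strand.

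EPHA4, a receptor able to bind ephrins of both classes, was the member with the largest drop before the correction for base composition and length given below, and EFNB2 after it. Its levels were 21.4, 22.1 and 21.6 CPM in the controls against 6.14, 7.56 and 7.23 CPM after knockdown. The control libraries were nearly alike and all siPRMT1 libraries lay far below them. The control SD, 1.68% of the mean, was below the 4.68% of counting error alone, so that closeness is not read further. The mean went from 21.7 ± 0.366 to 6.98 ± 0.741 CPM (SD, n = 3 each), 3.10-fold lower, with a log2 fold change of -1.63 (SE 0.079). EPHA4 (ENSG00000116106) lies on chromosome 2, 221418027 to 221574202, minus strand.

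Among the EphB receptors EPHB2 and EPHB4 were higher without overlap between the groups, while EPHB3 overlapped. EPHB2, a receptor with roles in axon guidance and in the positioning of intestinal cells, had 126.5, 126.1 and 122.8 CPM in the controls against 206, 205 and 201 CPM after knockdown. The groups were far apart relative to their spread, with means of 125 ± 2.02 and 204 ± 2.701 CPM (SD, n = 3 each; log2 fold change 0.71, SE 0.024). EPHB4, the partner of EFNB2 in blood vessels, had 33.3, 36.2 and 32.7 CPM in the controls and 46.5, 49.9 and 50.8 CPM after knockdown (log2 fold change 0.53, SE 0.044). These groups did not overlap either. EPHB4 shares 69 of its 6437 exon bases with SLC12A9 on the opposite strand, itself at 16.2 ± 0.796 and 26.0 ± 1.81 CPM (log2 fold change 0.67), and the part of its reads was not tested. EPHB3 was near the limit of detection, with 28, 13 and 19 counts in the controls against 25, 21 and 22 after knockdown. Its groups overlapped at 0.650 to 1.28 CPM against 1.14 to 1.55 CPM, the log2 fold change was 0.52 (SE 0.26), and it lay just past the threshold, as it did with RLE scaling (0.53), limma-voom (0.57), a filter of 1 CPM in 3 samples (0.52), the replicate block (0.55) and without control replicate 1 (0.81) or siPRMT1 replicate 2 (0.66). That place was lost without control replicate 2 (log2 fold change 0.32), control replicate 3 (0.48), siPRMT1 replicate 1 (0.43) or siPRMT1 replicate 3 (0.49), and with upper-quartile scaling (0.48), library size alone (0.21), DESeq2 (0.55) or no filter on low counts (0.51). At 60 counts in all control libraries and 68 in all siPRMT1 libraries, the direction of EPHB3 is uncertain.

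Both ephrin-A members were higher after knockdown, while the ephrin-B members moved apart. EFNA1, a ligand of EPHA2 first found as a gene that an inflammatory cytokine induces, had 5.89, 6.20 and 5.27 CPM in the controls against 11.3, 10.8 and 11.4 CPM after knockdown. All siPRMT1 libraries were higher, by a log2 fold change of 0.95 (SE 0.096). EFNA5, known from the mapping of visual axons, had 27.7, 27.5 and 26.1 CPM in the controls and 32.9, 31.9 and 34.2 CPM after knockdown, a log2 fold change of 0.28 (SE 0.051) without overlap. With scaling by library size alone, under which the log2 fold changes of all genes shifted by a median of -0.317, the EFNA5 value was -0.037.

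EFNB1, the X-linked ephrin whose loss disturbs craniofacial development, had 6.71, 6.996 and 7.39 CPM in the controls against 9.68, 9.95 and 9.92 CPM after knockdown (log2 fold change 0.49, SE 0.095). The groups did not overlap, but with scaling by library size alone the value was 0.17 and no longer past the threshold. EFNB2 moved the other way and was the only ephrin member that was lower. Its levels were 66.0, 66.0 and 63.9 CPM in the controls and 24.9, 24.1 and 24.8 CPM after knockdown. The spread within each group was small beside the gap between them, and the log2 fold change was -1.41 (SE 0.045), or 2.65-fold lower. EFNB2 (ENSG00000125266) lies on chromosome 13, 106489745 to 106535662, minus strand.

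Across all genes the fold change moved with transcript length and GC content, and their part in the members' values was not tested. The 2260 tested genes with at most 40% GC in their canonical transcript lay at a median of -1.02 on the log2 scale, and the 795 with more than 64% at 1.09. By length, the median went from 0.92 up to 1500 bases (2111 genes) to -1.10 above 10000 bases (560 genes). A fit with per-sample curves for both properties as offsets was set beside the uncorrected one. It left 3 members on the higher side (EPHA1, EPHB2 and EFNA5; background 37.7% of genes) and 3 on the lower side (EPHA2, EPHA4 and EFNB2; background 42.6% of genes), and the members' median became -0.028.

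EPHA1 kept a log2 fold change of 1.56 after the correction, at the 99.3rd percentile of all genes, and EFNB2 one of -1.12. The EPHA4 value was -0.88 after it, so that EPHA4 was no longer 2-fold lower. EPHA2 went from -0.34 to -0.87. Its transcript has a GC content of 60.3%, and between 60% and 64% the interquartile range of genes ran from 0.47 to 1.22, above the uncorrected EPHA2 value. EPHB2, whose transcript of 11035 bases carries a 3' UTR of 7930 bases, went from 0.71 to 0.93, while the interquartile range of transcripts above 10000 bases ran from -1.68 to -0.46. EFNA5, with a GC content of 43.4% and a length of 5372 bases, went from 0.28 to 1.01. The higher levels of EFNA1 (0.094 corrected), EPHB4 (-0.024), EPHB3 (-0.033) and EFNB1 (-0.16) did not pass the threshold after the correction, and 3 of these 4 changed sign. The uncorrected EPHB3, EPHB4 and EFNB1 values all lay within the interquartile range of genes of like GC content, but by length EPHB3 and EPHB4 lay above that of their bin (-0.97 to 0.39 between 3500 and 4500 bases).

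**Figure D2:**
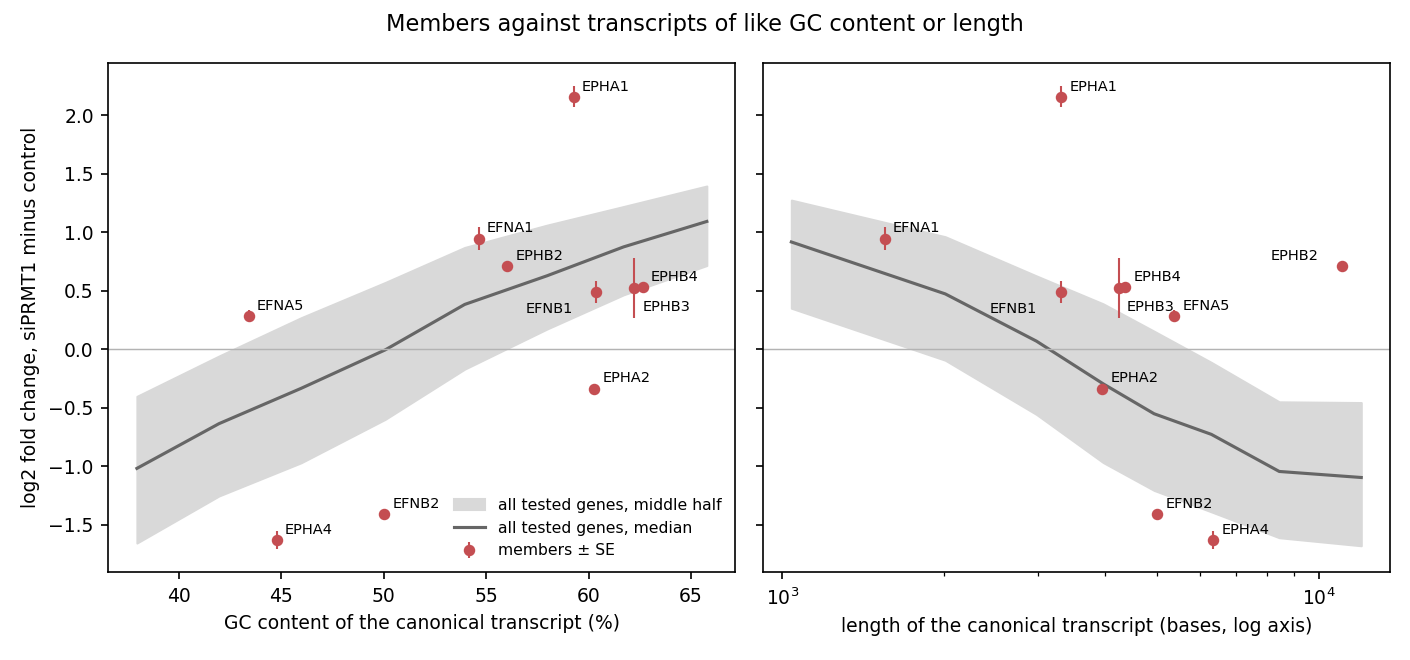
Log2 fold change (siPRMT1 minus control) of the 10 members (points, ± SE) against the GC content (left, %) and length (right, bases, log axis) of the canonical transcript, over the median (line) and interquartile range (band) of all tested genes in bins. EPHA1 (2.16) and EFNA5 (0.28) lie above both bands, and EPHA4 (-1.63) and EFNB2 (-1.41) lie below both. EPHB2 (0.71), EPHB3 (0.52) and EPHB4 (0.53) lie above the length band alone. EFNA1 (0.95) lies above the GC band alone, and EPHA2 (-0.34) lies below the GC band alone.

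Levels of different genes were compared per kilobase of summed exon length. In the control libraries the order of the receptors was EPHA2 at 53.3 ± 0.778, EPHB2 at 9.999 ± 0.162, EPHB4 at 5.29 ± 0.291, EPHA4 at 2.87 ± 0.0484, EPHA1 at 0.907 ± 0.142 and EPHB3 at 0.208 ± 0.0699 CPM per kilobase (SD, n = 3), and no neighbours among these 6 overlapped. After knockdown EPHA1 (4.02 ± 0.303) had passed EPHA4 (0.923 ± 0.0981), and the other 4 kept their places, though EPHB3 (0.305 ± 0.0469) now overlapped with EPHB6. Summed over all 14 receptor genes of the table the level was 72.8 ± 0.311 in the controls and 71.7 ± 1.30 after knockdown, a difference smaller than the spread between the siPRMT1 libraries. Within that sum EPHA2 made up 73.2 ± 0.762% in the controls and 58.8 ± 0.905% after knockdown, and EPHB2 13.7 ± 0.272% and 22.8 ± 0.212%. In words, the total of receptor transcript was about the same while EphB receptors took a larger part of it. The near-equal sums depend on the scaling: with the GC and length curves taken out of the levels the sums were 83.6 and 64.03, and the EPHA2 share 76.7% and 54.7%, and with library size alone the sums were 81.3 and 64.2.

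On the ligand side the leading transcript changed. In the controls EFNB2 (13.05 ± 0.243 CPM per kilobase) stood far above EFNA5 (4.73 ± 0.1502), EFNA4 (4.27 ± 0.395), EFNA1 (2.67 ± 0.218) and EFNB1 (2.13 ± 0.103). After knockdown EFNA4 (11.5 ± 0.229) led, followed by EFNA5 (5.75 ± 0.196), EFNA1 (5.16 ± 0.161) and EFNB2 (4.92 ± 0.0860), of which the last pair overlapped. The place of EFNA4 rests on its uncorrected values, which are uncertain because it shares exons with a read-through gene, and its log2 fold change of 1.42 was 0.24 after the GC and length correction. The EFNB2 share of the summed ephrin level was 46.1%, 46.3% and 45.5% in the controls and 15.6%, 15.3% and 15.1% after knockdown. With the GC and length curves taken out, its mean share was 38.9% and 19.5%, and that of EFNA5 was 12.1% and 26.5%. Over all 8 ephrin genes, the ratio of ephrin-A to ephrin-B transcript was 0.838 ± 0.00798 in the controls and 2.91 ± 0.0977 after knockdown, 3.47 times higher. Over the 4 ephrin members alone it was 0.487 ± 0.0188 and 1.38 ± 0.0331. With the GC and length curves taken out, the ratio over all ephrin genes was 1.05 and 2.47. These ratios restate the fold changes of the single genes and are no separate evidence.

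**Figure D3:**
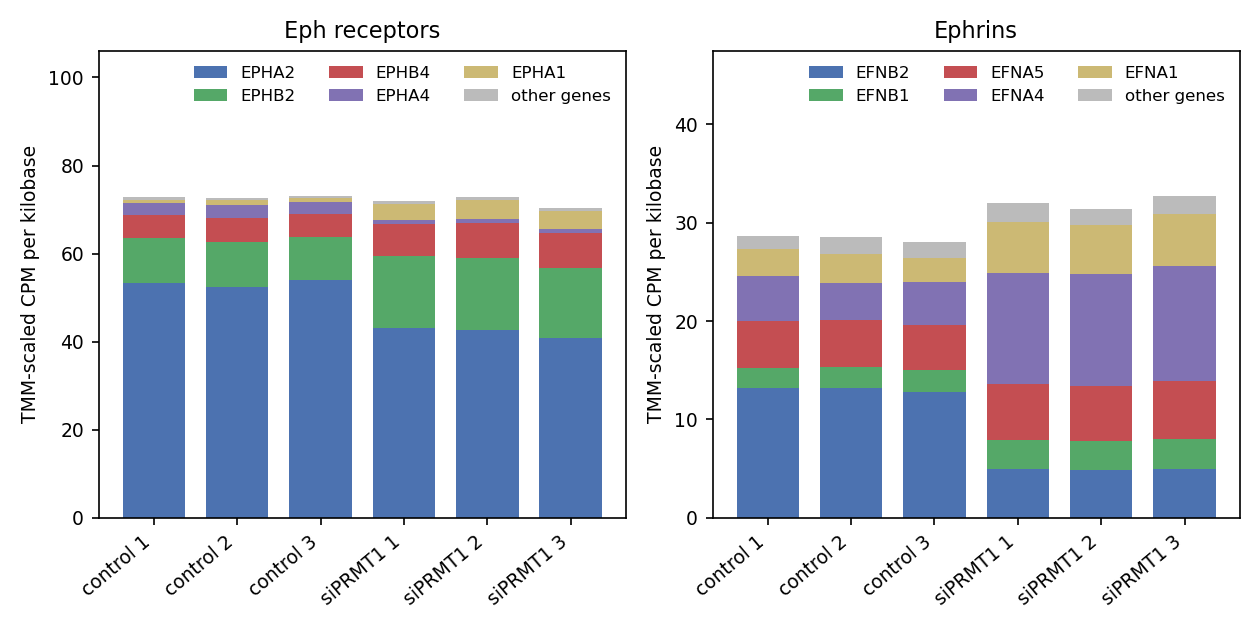
Stacked levels (TMM-scaled CPM per kilobase of exon) of Eph receptor genes (left) and ephrin genes (right) in each library, with genes not named in the legend summed in grey. The receptor columns have nearly the same height (72.8 against 71.7 on average) with a smaller EPHA2 part after knockdown, and in the ephrin columns the EFNB2 part shrinks while EFNA4 grows.

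The other 13 family genes of the table include 8 receptors, 4 ephrins and the read-through gene EFNA4-EFNA3, and 7 of them had enough counts to be tested. These are given with the adjusted p of edgeR's quasi-likelihood test (Benjamini-Hochberg over all tested genes). The family was taken up with earlier results of these data known, so these p-values serve as a description. EFNA4 rose from 5.37 ± 0.497 to 14.4 ± 0.288 CPM (log2 fold change 1.42, SE 0.092, adjusted p = 1.39e-44), but by 0.24 after the GC and length correction. It shares 189 of its 1257 exon bases with EFNA4-EFNA3, so its value is uncertain. EFNA4-EFNA3 itself was higher by 0.50 (adjusted p = 0.00288) but did not pass without control replicate 1 (0.38) or siPRMT1 replicate 3 (0.28) or with library size alone (0.18), and it was lower after the correction (-0.96). EFNA3, with 853 of 1944 exon bases shared with the read-through gene, did not pass (0.16, adjusted p = 0.381) and fell by 0.99 after the correction. EFNB3 was at 0.870 ± 0.0373 and 0.944 ± 0.331 CPM and did not pass (0.15, adjusted p = 0.625).

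EPHB6, a receptor without kinase activity, rose from 8, 8 and 6 counts in the controls to 20, 29 and 24 after knockdown. The increase was 2.05 on the log2 scale (SE 0.32; edgeR's quasi-likelihood adjusted p = 3.79e-10), and 1.48 after the correction. EPHA5 and EPHA7, receptors of the developing nervous system with long AT-rich transcripts, fell from 20, 14 and 17 counts to 1, 2 and 6 counts (EPHA5, log2 fold change -2.12) and from 14, 17 and 14 to 3, 5 and 4 (EPHA7, -1.54). Without siPRMT1 replicate 3 the EPHA5 value was -3.12. Neither passed after the correction (-0.89 and -0.37), and neither was tested with a filter of at least 1 CPM in 3 samples. Of the untested genes, EPHA10 had at most 9 counts in a library, EPHA6 at most 8, EFNA2 at most 4 and EPHB1 at most 1. EPHA3 had 3, 1 and 2 counts in the controls and none after knockdown, and EPHA8 had none in any library, where 0 counts allow a level of up to 0.197 CPM in the shallowest library (3 counts, counting error only).

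**Figure D4:**
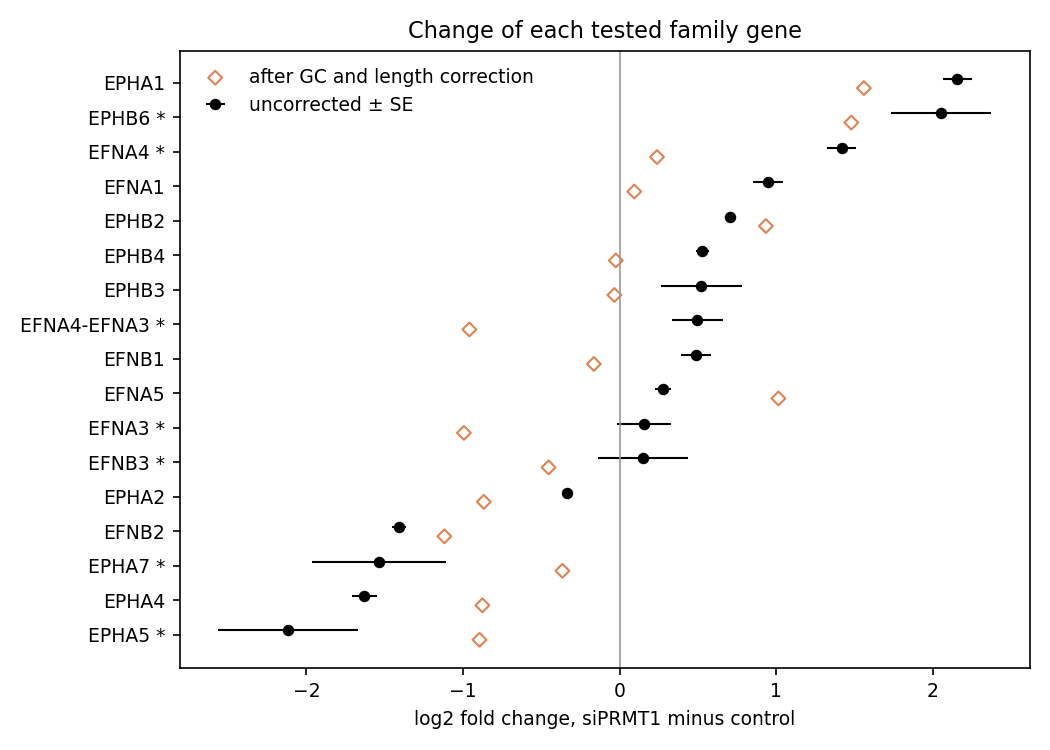
Log2 fold change (siPRMT1 minus control) of the 17 tested family genes, uncorrected with ± SE (filled) and after the GC and length correction (open diamonds). Asterisks mark genes other than the 10 members. EPHA1 and EPHB6 stay above 1.4 and EFNB2 below -1.1 in both, while EFNA4, EFNA1, EPHB4, EPHB3 and EFNB1 move close to 0.

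Promoter windows of the members (250 bases before to 50 after the annotated start, from RefSeq, GRCh38.p14) were found for all 10 genes, 12 windows in all. Those of the 3 members past 2-fold are printed to show the start regions of the one that was higher beside the pair that was lower. EPHA1 is at chr7:143408807-143409106, EPHA4 has windows at chr2:221574153-221574452 (upstream start) and chr2:221572255-221572554 (downstream start), and EFNB2 is at chr13:106535613-106535912, all on the minus strand and written 5′ to 3′. Capitals mark matches, on either strand, to the GC box GGGCGG, the TEAD motif GGAATG or the AP-1 motif TGANTCA; in these windows they are all GC boxes.
EPHA1: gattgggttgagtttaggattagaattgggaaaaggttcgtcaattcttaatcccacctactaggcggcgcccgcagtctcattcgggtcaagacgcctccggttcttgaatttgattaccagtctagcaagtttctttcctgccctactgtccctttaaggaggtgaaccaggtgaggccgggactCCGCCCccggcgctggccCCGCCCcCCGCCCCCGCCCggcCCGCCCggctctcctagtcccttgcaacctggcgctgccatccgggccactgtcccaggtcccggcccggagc
EPHA4 upstream start: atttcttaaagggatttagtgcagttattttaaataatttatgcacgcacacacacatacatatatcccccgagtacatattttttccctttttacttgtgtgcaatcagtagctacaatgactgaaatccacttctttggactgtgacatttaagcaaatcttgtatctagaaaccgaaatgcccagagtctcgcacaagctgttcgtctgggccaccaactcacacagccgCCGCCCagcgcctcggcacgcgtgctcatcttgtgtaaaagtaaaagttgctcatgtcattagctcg
EPHA4 downstream start: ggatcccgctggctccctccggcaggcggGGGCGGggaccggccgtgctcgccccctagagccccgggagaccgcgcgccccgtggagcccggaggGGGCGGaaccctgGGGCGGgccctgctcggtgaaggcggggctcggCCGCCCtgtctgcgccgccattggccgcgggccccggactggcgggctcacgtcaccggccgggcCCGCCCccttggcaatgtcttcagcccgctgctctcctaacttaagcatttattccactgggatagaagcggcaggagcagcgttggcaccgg
EFNB2: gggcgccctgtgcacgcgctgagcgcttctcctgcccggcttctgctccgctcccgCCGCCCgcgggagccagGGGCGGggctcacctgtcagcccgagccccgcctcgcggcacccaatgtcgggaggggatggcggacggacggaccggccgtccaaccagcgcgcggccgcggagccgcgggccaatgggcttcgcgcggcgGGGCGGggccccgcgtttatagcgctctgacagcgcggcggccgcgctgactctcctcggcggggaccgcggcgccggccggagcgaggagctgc

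The EPHA1 window holds 5 GC boxes and has a GC content of 62.0%, the EFNB2 window holds 3 at 78.7%, and the EPHA4 windows hold 1 at 43.0% and 5 at 74.3%. Higher and lower members thus both carry this motif. All 10 members have at least 1 GC box in a window, as do 64.8% of the 15743 windows of tested genes. A TEAD motif was found in 1 member, EPHA2, against 11.5% of windows, and an AP-1 motif in none, against 5.46%. The motifs overlap each other in no printed window. These matches describe the letters of the windows only.

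Genes that act around the receptors were taken from 5 lists of textbook partners, 55 genes of which 54 were tested. The lists were chosen with earlier results of these data known, so their values and calls are given as a description. Over all of them 19 rose and 34 fell by edgeR's quasi-likelihood test (adjusted p under 0.05), beside 44.3% and 45% of all tested genes, with a median log2 fold change of -0.38 against -0.0082 for all tested genes. After the GC and length correction 15 were higher and 36 lower, with a median of -0.31. The shares of 44.3% and 45% are also the background for the counts of each list below, and 37.7% and 42.6% for the corrected counts. No test of the lists against other genes was made.

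Forward signalling starts with adaptors and kinases that bind the phosphorylated receptor. Of 21 tested genes 6 rose and 15 fell, 8 of them at least 2-fold (background 21% of genes), with a median of -0.76 (-0.46 corrected). After the correction 5 were higher and 16 lower, and fewer were at least 2-fold lower. RASA1, a Ras GTPase-activating protein that binds EphB receptors, fell from 62.4 ± 2.21 to 9.57 ± 1.62 CPM (log2 fold change -2.72, SE 0.058). CBL, the ubiquitin ligase that sends activated receptors to degradation, fell from 58.8 ± 1.28 to 12.7 ± 0.381 CPM (-2.21), and YES1, a Src family kinase, from 88.8 ± 3.13 to 26.3 ± 0.105 CPM (-1.76). The adaptor GRB7 (1.49), SRC (0.69) and DOK1 (0.79) rose. The corrected values were -2.11 for RASA1, -1.29 for CBL, -0.75 for YES1, 0.56 for GRB7, 0.32 for SRC and -0.27 for DOK1, the only one of these 6 to change sign.

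Partners of the ephrin-B tail in reverse signalling were divided before the correction, with 4 of 10 rising and 6 falling. After it 2 were higher, 7 were lower and 1 did not pass. PARD6B, a cell polarity protein, fell from 32.8 ± 0.234 to 5.68 ± 0.736 CPM (-2.52, -1.67 corrected), while its relative PARD6A rose from 3.53 ± 0.111 to 12.9 ± 0.354 CPM (1.86, 0.45 corrected). GRIP1 (-1.43, -0.79 corrected) and PTPN13 (-1.36, -0.40 corrected), PDZ proteins that bind the ephrin-B tail, fell, and PICK1 (1.15, 0.091 corrected) and DVL2 (0.83, 0.12 corrected) rose.

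Among 10 genes of shedding and cleavage 5 rose and 5 fell, and after the correction 4 were higher, 5 were lower and 1 did not pass. ADAM10, the protease that cuts ephrins in complex with Eph receptors, fell from 175 ± 5.20 to 41.6 ± 2.10 CPM (-2.07, -0.66 corrected). The gamma-secretase subunits moved apart: NCSTN (-1.003, -1.12 corrected) and APH1A (-0.68, -1.47 corrected) fell, while PSENEN rose from 48.1 ± 1.66 to 136 ± 1.06 CPM (1.49, 0.99 corrected). MMP14, a protease that cuts EPHA2, rose by 0.40 but was lower after the correction (-0.11). PSEN2 rose by 0.27, a direction that turned under the correction (-0.35) and under library-size scaling (-0.048).

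Of 6 tested phosphatases 5 fell and ACP1 did not pass (0.048; edgeR's adjusted p = 0.182). After the correction 1 was higher, 4 were lower and 1 did not pass. PTPN11, the phosphatase SHP2, fell from 240.3 ± 5.43 to 42.1 ± 0.295 CPM (-2.51, -1.62 corrected), and PTPRJ (-1.44, -0.78 corrected) and PTPRF (-0.77, -0.86 corrected) fell as well. The kinases that phosphorylate EPHA2 on serine, the mark of its ligand-independent state, were divided, with 4 of 7 rising and 3 falling. After the correction 3 were higher and 4 lower, and their median of 0.43 became -0.26. PRKACA (0.77, 0.19 corrected), RPS6KA1 (0.74, 0.19 corrected) and AKT1 (0.50, but -0.26 corrected) rose. PRKACB (-1.56, -0.45 corrected), RPS6KA3 (-1.84, -0.66 corrected) and RPS6KA2 (-0.34, -0.26 corrected), paralogs of PRKACA and RPS6KA1, fell.

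**Figure D5:**
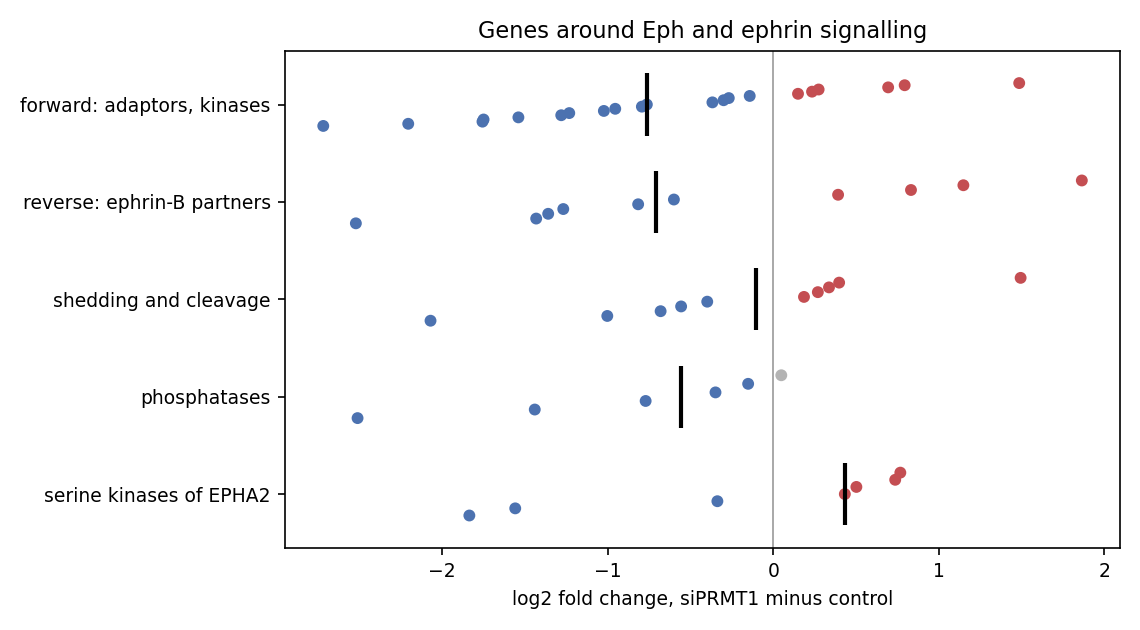
Log2 fold change (siPRMT1 minus control) of the tested genes in the 5 lists around Eph and ephrin signalling, with 1 point a gene (red, higher past the threshold; blue, lower past it; grey, not past it) and a black bar at each list's median. Each list holds genes below 0, and the uncorrected median is furthest below 0 for the adaptors and kinases (-0.76), whereas after the GC and length correction that of the phosphatases is (-0.47, against -0.46).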

How the data were processed

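The members and the gene lists were chosen with earlier results of these data known. The data deposited by the authors are raw counts of reads for each gene in 6 libraries (3 control, 3 siPRMT1), beside a summed exon length, per the file headers. Per the submitters' processing notes the genome build was hg38 and the tools were STAR 2.7.6a, fastp 0.23.2, edgeR 3.40.2, Subread 1.5.1 and featureCounts, with no roles stated. The sources used here do not give the annotation, the strand setting or the treatment of duplicates and molecular identifiers.

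Genes passing filterByExpr (13710) were tested with edgeR 4.0.16 under R 4.3.3 (TMM scaling, glmQLFit, glmQLFTest, two-sided), and p-values were adjusted over all of them by the Benjamini-Hochberg method, with a threshold of 0.05. The standard error is the log2 fold change divided by the square root of its F statistic. CPM are TMM-scaled, and levels per kilobase use the deposited length. GC content and transcript length came from GENCODE 44 canonical transcripts (13694 of the tested genes) and entered as splines with 5 degrees of freedom per sample. The fit was tested on simulated data. Replicates of a group differed by more than sampling noise (chi-square per degree of freedom between 1.05 and 1.38), so all were kept.

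Named genes are PRMT1, the 10 members, the other family genes, and in each list the 3 highest and 3 lowest log2 fold changes past the threshold without overlap between the groups. ZYX, SLC12A9, ACP1, the marker genes singled out and the neighbours of EPHA1 were named after their values were seen. Some listed genes are not reported here. Alternatives were RLE, upper-quartile and library-size scaling, DESeq2 1.42.0, limma-voom (limma 3.58.1), no filter, a filter of 1 CPM in 3 samples, a replicate block, the GC and length correction with and without that block, canonical transcript lengths, and leaving out each library. Correction of the summed levels was added after seeing the data.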

Additional observations from a re-analysis of the deposited data

How the results depend on the processing

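As a description, since the members were chosen with this comparison known, the log2 fold changes of EPHA1, EPHA2, EPHA4, EPHB2 and EFNB2 over the alternatives run lay between 1.55 and 2.25, -0.87 and -0.31, -1.95 and -0.88, 0.39 and 0.93, and -1.72 and -1.12. With library size alone 4 members were higher (EFNA5 then lay at -0.037 and PSEN2 at -0.048) and 12 genes of the pathway lists rose. Of all genes past the threshold with that scaling, 37.7% were higher. With the GC and length correction 3 members were higher (background 37.7% of genes), 2 at least 2-fold higher and 1 at least 2-fold lower. These counts were the same with the correction and the replicate block together. The share of all genes past 2-fold under the correction is not given here, so nothing is read from the 2-fold counts. Among the members, the other family genes and the listed genes named by rule, some signs changed with the correction, alone and with the block. They were those of EPHB3 (-0.033 and -0.010), EPHB4 (-0.024 and -0.028), EFNB1 (-0.16 and -0.16), EFNA3 (-0.99 and -0.99), EFNA4-EFNA3 (-0.96 and -0.94), EFNB3 (-0.45 and -0.47), DOK1 (-0.27 and -0.27), MMP14 (-0.11 and -0.11), PSEN2 (-0.35 and -0.34) and AKT1 (-0.26 and -0.26). Other listed genes, not named by that rule, changed sign as well. The cause was not tested. With lengths of canonical transcripts the EPHA2 share of the receptor sum was 69.6% in the controls and 54.2% after knockdown, and the ephrin-A to ephrin-B ratio was 0.932 and 3.22; with levels corrected for GC content and length they were 76.7% and 54.7%, and 1.05 and 2.47. The replicate block alone changed no call among the members. Same-numbered libraries did not deviate together (correlations of -0.014, -0.025 and -0.0081 over 9899 genes). No pairing by number was thus seen, but a pairing that leaves no shared deviation would be missed. With the block 12219 genes passed in place of 12243. Depth limits EPHB3, EPHB6, EPHA5, EPHA7 and EFNB3, which had at most 29 counts in any library.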

Other observations

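EPHB6 and EPHA1, the family genes with the highest rises, lie on the same arm of chromosome 7, 519 kilobases apart. This was noticed after the values were seen. Within 1 megabase of EPHA1, 16 other genes, EPHB6 included, were tested, of which 9 rose and 4 fell by edgeR's quasi-likelihood test (adjusted p under 0.05), beside 44.3% and 45% of all tested genes, with a median log2 fold change of 0.88 (0.44 after the GC and length correction). They include PRSS2 (2.30), TRBC2 (1.54), ZYX (1.65) and GSTK1 (0.89, -0.089 corrected) among those that rose, and CASP2 (-0.45), TCAF2 (-2.66), TCAF1 (-1.86) and ARHGEF35 (-1.19) among those that fell. The genes on the EPHB6 side of EPHA1 were mostly higher, but TRBC1, TRBJ2-1, TRBJ2-3 and TRBC2 among them lie next to one another. Those on the far side were mostly lower, though CTAGE4 (0.51) and ARHGEF5 (-0.13) did not pass. PRSS2 and TRBC2 have close relatives nearby, so their reads can be shared, and their values are uncertain. For comparison, 48 neighbours of EPHB4 elsewhere on chromosome 7 had a median of 0.90, which was -0.049 after the correction. Whether the position of EPHA1 and EPHB6 bears on their change was not tested.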
